A study of Mus musculus with 3 samples.

Results

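The Ly6 cluster on mouse chromosome 15 was described across 3 RNA sequencing libraries of c2c12 cells, an immortalized mouse myoblast line that fuses into myotubes when serum is lowered. Its members were taken by gene symbol: Ly6a, Ly6c1, Ly6c2, Ly6e, Ly6f, Ly6i, Lynx1, Them6 and 9030619P08Rik, 9 of the 23238 symbols counted. The set was chosen by symbol from a stretch of chromosome 15 and selected on the ratios of these same libraries, chiefly the higher CPM (counts scaled to library size) on GelMA-PSS than on GelMA and TCP. The ratios below are therefore a description and carry no test. Cells differentiated for 2 days in myogenic induction medium with horse serum on 3 substrates, which were the tissue culture plate (TCP), methacrylated gelatin (GelMA) and GelMA at 15% mixed with 1% poly(sodium-4-styrenesulfonate) (GelMA-PSS), a sulfonated polymer used as a heparin mimic. TCP and GelMA were the controls, and all 3 libraries came from the same line, medium and day. Each substrate had 1 library, so no spread between cultures could be estimated and no p-value is given. The libraries held 119799095 counts on TCP, 87071144 on GelMA and 192171443 on GelMA-PSS.

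Ly6 proteins are small, cysteine-rich proteins of the Ly6/uPAR family, held together by disulfide bonds and mostly tethered to the cell surface by a glycosylphosphatidylinositol (GPI) anchor. Ly6a, better known as Sca-1, marks blood stem cells and many tissue progenitors of the mouse, and in myoblasts it has been linked to the control of proliferation and differentiation. Ly6c1 and Ly6c2 encode the Ly6C antigen of monocytes and endothelial cells, and several genes of the cluster are known to respond to interferon. The cluster grew by repeated gene duplication, so its members resemble each other in sequence and lie side by side.

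The label was checked against the annotation, and all 9 members lay on chromosome 15 within the 711 kb of chr15:74721204-75431829 (GRCm38). Of these, 7 are protein-coding Ly6 family genes. Them6 encodes a thioesterase-like protein and is no Ly6 gene, and 9030619P08Rik is annotated as a transcribed unprocessed pseudogene. The first 90 coding bases of 6 members, spliced from the annotated transcripts, are shown because they carry the start codon and the leader that precedes the mature protein, and because the likeness between members bears on how their reads were assigned. Capitals mark bases that differ from Ly6a.
Ly6a: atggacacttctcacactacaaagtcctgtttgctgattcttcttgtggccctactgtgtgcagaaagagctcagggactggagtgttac
Ly6c1: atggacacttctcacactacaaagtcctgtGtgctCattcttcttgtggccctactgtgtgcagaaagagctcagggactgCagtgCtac
Ly6c2: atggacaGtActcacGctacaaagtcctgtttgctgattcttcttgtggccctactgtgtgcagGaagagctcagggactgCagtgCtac
Ly6i: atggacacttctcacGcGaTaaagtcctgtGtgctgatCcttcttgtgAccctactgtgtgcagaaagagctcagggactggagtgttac
Ly6f: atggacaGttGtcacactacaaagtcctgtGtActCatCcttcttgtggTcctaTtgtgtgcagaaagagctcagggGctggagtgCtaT
Ly6e: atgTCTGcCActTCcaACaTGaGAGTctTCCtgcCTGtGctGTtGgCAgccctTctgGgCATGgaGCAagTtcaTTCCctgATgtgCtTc
In this stretch Ly6c1 differed from Ly6a at 4 bases, Ly6c2 and Ly6i each at 6 and Ly6f at 11, whereas Ly6e differed at 46.

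Over the whole coding sequence Ly6c1 and Ly6c2 were 97.7% identical. Ly6a was 86.3% identical to Ly6i, 84.6% to Ly6f, 83.7% to Ly6c1 and 64.1% to Ly6e. Its identity to Them6, a gene of another family, was 61.4%, so the alignment of Ly6e or Lynx1 (68.8%) to Ly6a lay close to that of an unrelated gene. The pseudogene 9030619P08Rik has no coding sequence to compare, and its transcript was 85.2% identical to that of Ly6i and 84.2% to that of Ly6a. Ly6a, Ly6c1, Ly6c2, Ly6f and Ly6i thus formed 1 group of close copies, with Ly6e and Lynx1 apart.

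**Figure D1:**
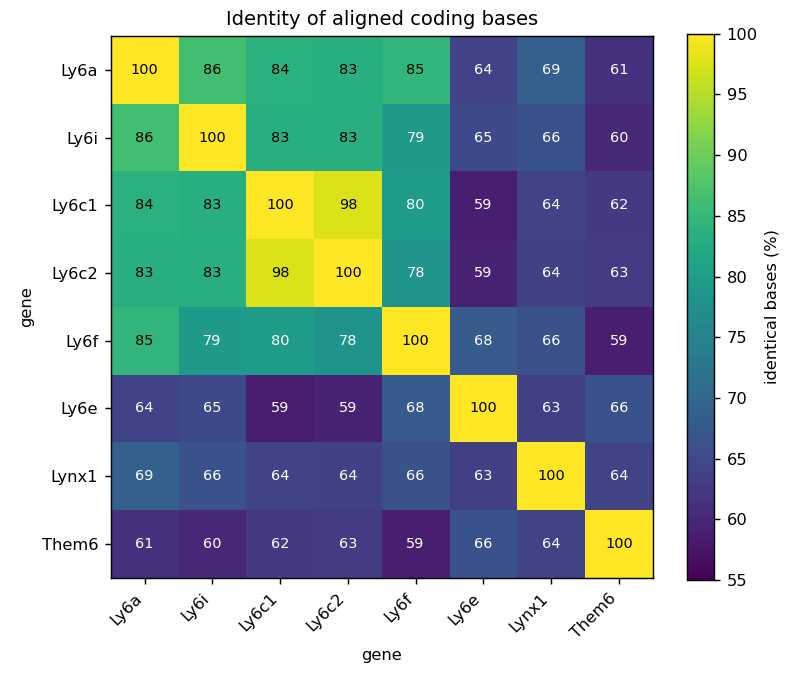
Identity of aligned coding bases in percent between the 8 protein-coding members, with both axes listing genes and the colour scale running from 55 to 100. Ly6c1 and Ly6c2 stand out at 98 after rounding, the 5 close copies share 78 or more, and Ly6e, Lynx1 and Them6 lie between 59 and 69 against every other member.

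Such likeness limits how far reads can be told apart. Every run of bases as long as a read of the study was looked up in the transcripts of all other annotated genes on both strands. Of the 744 such windows of Ly6c1, 112 (15.1%) were also found in Ly6c2, as were 15.5% of the windows of Ly6c2 in Ly6c1. Them6 shared 13.2% of its windows with Slurp1, a gene on the opposite strand whose transcript overlaps its end. The other 6 members shared no window of that length. With windows of 50 bases, 36.7% of Ly6c1, 33.0% of Ly6c2, 10.0% of Ly6a and 4.97% of Ly6i were shared, and for Ly6e, Ly6f and Lynx1 no window was. How reads with several places were counted, and whether counting used strand, is not given in the sources used here, so Ly6c1 and Ly6c2 are uncertain as separate genes and their summed count is also given.

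The members lay in the order Them6, Lynx1, Ly6e, Ly6i, Ly6a, Ly6c1, Ly6c2, Ly6f and 9030619P08Rik. Ly6a, at chr15:74994877-74998031 on the minus strand, has 4 exons and a transcript of 955 bases. Ly6i, at chr15:74979534-74983430 on the same strand, has 3 exons. Ly6c1 (chr15:75044018-75048830) and Ly6c2 (chr15:75108158-75111970) are minus-strand genes with transcripts of 844 and 822 bases, and 9030619P08Rik (chr15:75427606-75431829) is a minus-strand gene as well. Ly6e (chr15:74955051-74959905), Ly6f (chr15:75268421-75272235) and Them6 (chr15:74721204-74724639) are read from the plus strand. Lynx1, at chr15:74747852-74753046 on the minus strand, has the longest transcript of the 9, at 4023 bases, and Ly6e follows with 2281. The 5 close copies and 9030619P08Rik all have transcripts of 822 to 1156 bases, which matters for the ratios below.

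Levels are given in CPM, for which each count was divided by its library total after scaling by trimmed mean of M values (TMM), with 95% intervals that cover counting error only. Ly6a was the most abundant member over the 3 libraries, with 36021 counts on TCP, 39172 on GelMA and 194018 on GelMA-PSS. This was 296 CPM (293 to 299) on TCP, 431 CPM (427 to 435) on GelMA and 1071 CPM (1066 to 1076) on GelMA-PSS. The 3 intervals lay apart, with the GelMA-PSS library highest and TCP lowest. Ranked among all symbols of its library, Ly6a moved from place 533 on TCP to 314 on GelMA and 124 on GelMA-PSS, where it took 0.101% of all counts.

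Ly6c1 followed at 242 CPM on TCP, 399 on GelMA and 887 on GelMA-PSS. Ly6c2 had 91.4, 162 and 337 CPM in the same order. Both were lowest on TCP and highest on GelMA-PSS. The ratio of Ly6c2 to Ly6c1 counts was 0.378 on TCP (95% interval 0.370 to 0.386), 0.408 on GelMA (0.400 to 0.416) and 0.380 on GelMA-PSS (0.376 to 0.383). The pair thus kept nearly the same proportion on TCP and GelMA-PSS, and Ly6c2 took a slightly larger part on GelMA.

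Ly6f, a close copy whose role is little known, was counted at 25.3 CPM on TCP, 41.6 on GelMA and 106.5 on GelMA-PSS. The pseudogene 9030619P08Rik had 20.3, 32.8 and 87.8 CPM. The counts of 9030619P08Rik per count of Ly6f were 0.802, 0.790 and 0.824, with overlapping intervals in all 3 libraries. Per count of Ly6c1, both had the larger share on GelMA-PSS, where Ly6f reached 0.120 against 0.105 on TCP and 0.104 on GelMA, and 9030619P08Rik 0.0990 against 0.0839 and 0.0824.

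Ly6i, the neighbour of Ly6a, had another profile. It was counted at 18.7 CPM on TCP (18.0 to 19.5), 19.1 on GelMA (18.23 to 20.03) and 59.8 on GelMA-PSS (58.7 to 60.9). The TCP and GelMA intervals overlapped and the GelMA-PSS value lay far above both. For each count of Ly6a there were 0.0633 counts of Ly6i on TCP, 0.0443 on GelMA and 0.0558 on GelMA-PSS.

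Ly6e, which encodes a GPI-anchored protein with known roles in virus entry and in placental cell fusion, had 155 CPM on TCP, 218 on GelMA and 369 on GelMA-PSS. Its ratio to either control was smaller than that of Ly6a, and the ratio of Ly6e to Ly6a counts was 0.524 on TCP, 0.505 on GelMA and 0.345 on GelMA-PSS. Them6 was the least abundant member at 11.3, 13.5 and 20.9 CPM. Lynx1, which encodes a Ly6 protein that binds nicotinic acetylcholine receptors, stayed nearly level, with 104 CPM on TCP (102.6 to 106.2), 97.5 on GelMA (95.5 to 99.6) and 97.7 on GelMA-PSS (96.2 to 99.1). It was the member that did not follow the order of the others, since 8 of 9 had GelMA-PSS above GelMA above TCP, an order seen in 22.5% of all 13169 genes tested (those with 1 CPM or more in at least 1 library).

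**Figure D2:**
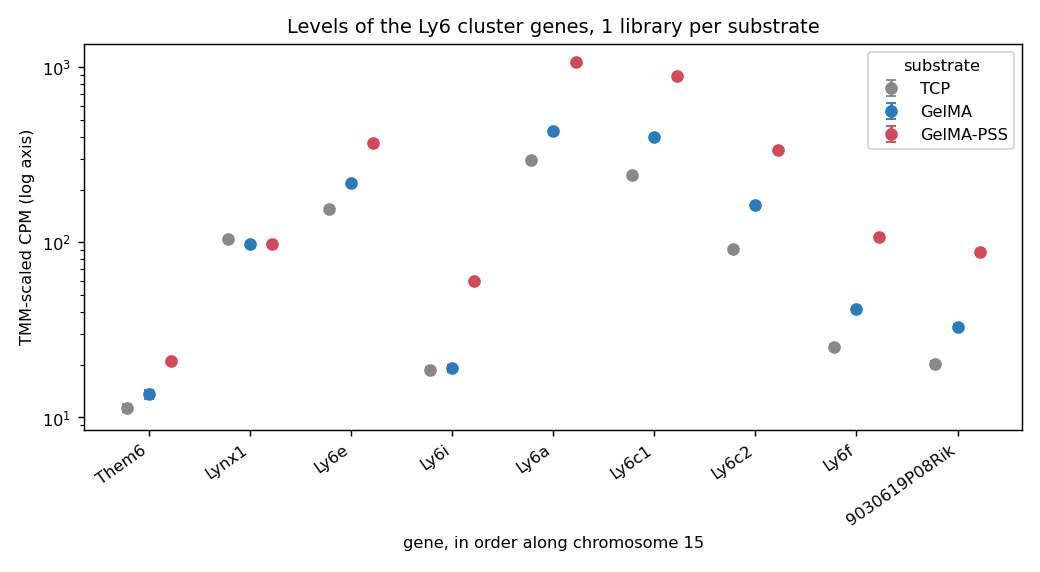
TMM-scaled CPM on a log axis for the 9 members, arranged along the chromosome, with 1 point per substrate and 95% counting intervals that are mostly smaller than the points. GelMA-PSS is the highest point for every member except Lynx1, whose 3 values lie between 97.5 and 104 CPM, and Ly6a reaches 1071 CPM.

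Between genes, levels were compared as CPM per kilobase of transcript. On TCP this scale put Ly6a first at 310, Ly6c1 at 287, Ly6c2 at 111 and Ly6e at 68.0. Ly6f (28.9), Lynx1 (26.0) and 9030619P08Rik (23.7) lay close together below them, and Ly6i (16.2) and Them6 (6.32) were last. On GelMA Ly6c1 stood first at 472 with Ly6a at 451, and on GelMA-PSS Ly6a was first again at 1121 with Ly6c1 at 1050. Without replicate libraries, such exchanges between neighbours in the order cannot be set against a spread. Lynx1 was the sixth of the members on TCP and the eighth on GelMA-PSS, with 24.2 on GelMA and 24.3 on GelMA-PSS. Summed over the 9 members, the cluster took 0.0980% of all counts on TCP, 0.148% on GelMA and 0.286% on GelMA-PSS.

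The comparison of GelMA-PSS with GelMA asks what the sulfonated polymer adds to the hydrogel. A gene was called when its ratio passed 2-fold on the scale of log2(CPM + 1). This scale understates the ratio of genes with few counts, and more so the lower their CPM. Past 2-fold higher on GelMA-PSS were 6 of 9 members: Ly6a, Ly6c1, Ly6c2, Ly6f, Ly6i and 9030619P08Rik. Of all tested genes, 1.77% were called higher in that comparison, and nothing is read from the members' larger share, since it was known when they were picked. Ly6i led with a 3.13-fold higher CPM (2.97 to 3.29, counting error only), followed by 9030619P08Rik at 2.67-fold (2.57 to 2.78), Ly6f at 2.56-fold (2.47 to 2.65) and Ly6a at 2.48-fold (2.46 to 2.51). Ly6c1 at 2.22-fold (2.20 to 2.25) and Ly6c2 at 2.07-fold (2.04 to 2.11) lay nearest to the threshold from above. Below it were Ly6e at 1.69-fold (1.67 to 1.72), Them6 at 1.54-fold (1.45 to 1.65) and Lynx1 at 1.00-fold (0.976 to 1.03). The median log2 ratio of the 9 members was 1.15, against 0.03 over all tested genes.

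Against TCP, the rigid culture plastic, the ratio of GelMA-PSS was larger than that against GelMA for 7 members and nearly the same for Ly6i. Past 2-fold higher were 7 of 9 members, Ly6e now among them, beside 3.72% of all tested genes. 9030619P08Rik was 4.32-fold higher (4.14 to 4.51) and Ly6f 4.21-fold (4.05 to 4.37). Ly6c2 at 3.68-fold (3.61 to 3.76), Ly6c1 at 3.66-fold (3.62 to 3.71) and Ly6a at 3.62-fold (3.58 to 3.66) were nearly equal to each other. Ly6i was 3.19-fold higher (3.05 to 3.34) and Ly6e 2.38-fold (2.34 to 2.42). Them6 was at 1.85-fold (1.74 to 1.97) and Lynx1 at 0.935-fold (0.914 to 0.957), the single member with a lower CPM on GelMA-PSS than on TCP. The median log2 ratio was 1.85 over the members and 0.04 over all tested genes. Both comparisons share the GelMA-PSS library, so they are not independent of each other.

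GelMA against TCP, the comparison of the 2 controls, gave 0 of 9 members past 2-fold in either direction, beside 0.706% of all tested genes called higher. Of the 13169 tested genes 39 were called lower, so a count of 0 lies near the background. The ratios still differed between members. Ly6c2 was 1.78-fold higher on GelMA (1.73 to 1.82), Ly6c1 1.65-fold (1.62 to 1.67), Ly6f 1.64-fold (1.56 to 1.72), 9030619P08Rik 1.62-fold (1.53 to 1.71), Ly6a 1.46-fold (1.44 to 1.48) and Ly6e 1.40-fold (1.38 to 1.43). Them6 was at 1.20-fold (1.11 to 1.30), Ly6i at 1.02-fold (0.959 to 1.09) and Lynx1 at 0.934-fold (0.909 to 0.960). For most close copies, part of the distance between GelMA-PSS and TCP was therefore already present between the controls, whereas Ly6i was nearly level between them.

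Counted together, Ly6c1 and Ly6c2 were 2.18-fold higher on GelMA-PSS than on GelMA (2.16 to 2.20), 3.67-fold higher than on TCP (3.63 to 3.71) and 1.68-fold higher on GelMA than on TCP (1.66 to 1.70). The sum does not depend on how reads were split between the pair, but it does depend on whether shared reads were dropped or counted for both. Its plain CPM ratio lies between those of the 2 genes by construction. That it passed 2-fold wherever both genes did was therefore fixed in advance and adds no support.

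**Figure D3:**
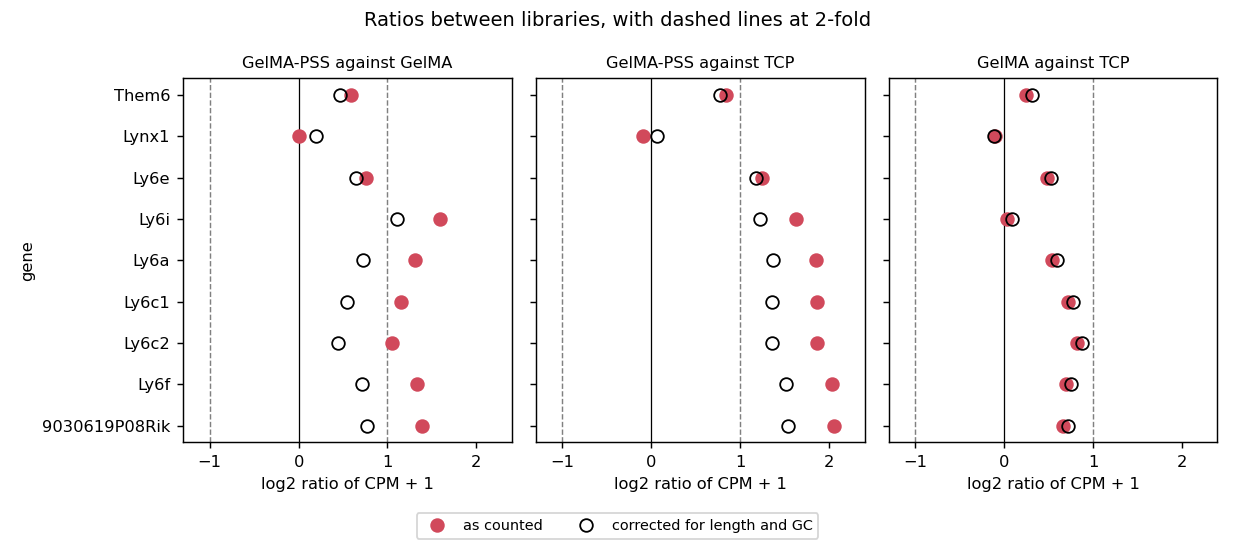
Log2 ratio of CPM + 1 for each member in the 3 comparisons, as counted (filled) and after correction for transcript length and GC content (open), with dashed lines at 2-fold. The 6 members past the line against GelMA move left on correction and only Ly6i stays beyond it at 1.10, whereas against TCP all 7 stay beyond it.

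Transcript length moved with these ratios across the whole data. Over the 13060 tested genes with an annotated length, Spearman's rho of length with the log2 ratio was -0.66 for GelMA-PSS against GelMA, -0.51 for GelMA-PSS against TCP and 0.21 for GelMA against TCP. These are descriptions across genes of the same libraries, and genes are not independent replicates. Short transcripts were counted relatively higher in the GelMA-PSS library, and the 6 called members are short. Among the 700 tested genes with transcripts of 822 to 1156 bases, the range of the called members, the median log2 ratio reached 0.57 when GelMA was the control and 0.48 when TCP was. The part of RNA quality or library preparation in this relation was not tested, and with 1 library per substrate the library and the substrate cannot be told apart.

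With the ratios corrected by loess fits on length and GC content, the log2 ratio of Ly6a against GelMA went from 1.31 to 0.73, Ly6c1 from 1.15 to 0.55, Ly6c2 from 1.05 to 0.44, Ly6f from 1.34 to 0.72 and 9030619P08Rik from 1.39 to 0.77. Ly6i went from 1.60 to 1.10 and was the 1 member of 9 that remained past 2-fold. Ly6e, with a longer transcript, moved little, from 0.76 to 0.65. Against TCP, 7 of 9 members remained past 2-fold, with corrected log2 ratios from 1.18 for Ly6e to 1.54 for 9030619P08Rik. Of the 13060 genes corrected, 88 were past 2-fold higher against GelMA and 261 against TCP. Nothing is read from the members' larger share, since they were selected on these ratios. The median of the members after correction was 0.65 against GelMA and 1.36 against TCP, where that of all tested genes was 0.00. GelMA against TCP changed little, and its median over the members went from 0.54 to 0.60. Ly6a was higher than 99.6% of tested genes in the ratio against GelMA before correction and than 98.2% after it, and Ly6i than 99.8% and 99.5%. Ly6c1 went from 99.1% to 95.5% and Ly6c2 from 98.6% to 92.5%. These places rest on the ratios by which the set was selected and are a description only.

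Past 2-fold higher against both controls were 6 of 9 members, beside 1.37% of all tested genes, and 5.00% of the 700 genes of like transcript length. The 700 genes include these 6 members. In the other direction 1.16% of tested genes were past 2-fold lower against both, with 0 of 9 members. After correction for length and GC content the count was 1 of 9, Ly6i, beside 0.452% of tested genes.

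**Figure D4:**
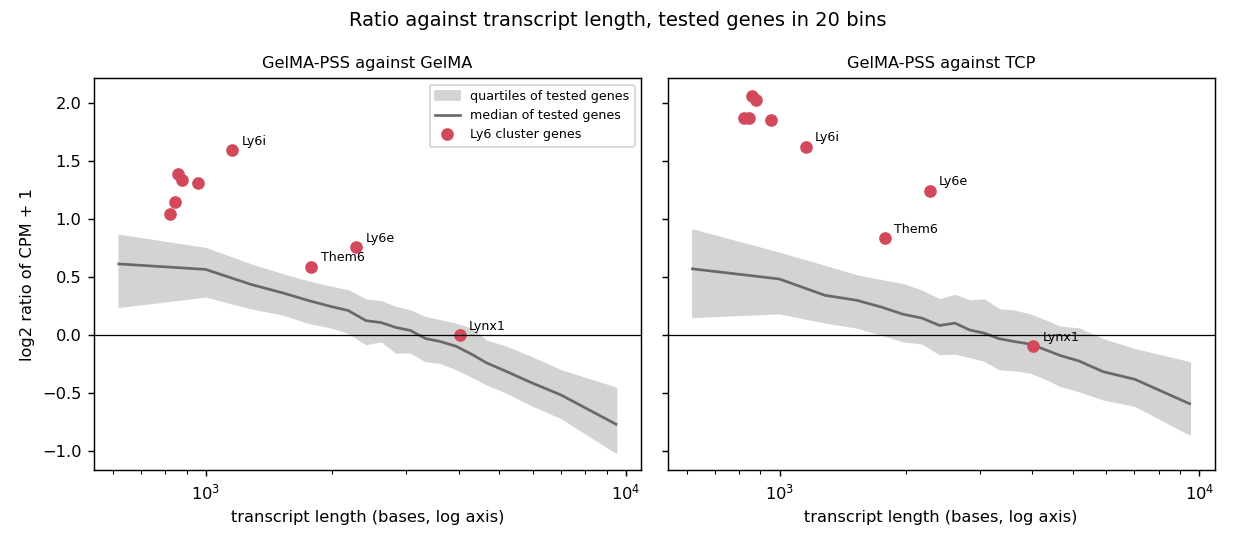
Log2 ratio of CPM + 1 against transcript length in bases (log axis) for GelMA-PSS against GelMA and against TCP, where the grey line and band give the median and quartiles of tested genes in 20 bins of length and red points are the members. The line falls with length, the 6 short members lie above the band in both panels, and Lynx1 at 4023 bases lies inside it.

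Promoter sequences were given for 3 of the 9 members, and the 250 bases before the start of Ly6c1, Ly6c2 and Ly6f are shown because the 3 genes had the same order of substrates. They come from RefSeq on GRCm38.p6 and lie at chr15:75048838-75049087 on the minus strand, chr15:75111972-75112221 on the minus strand and chr15:75268171-75268420 on the plus strand. Capitals mark matches to CAGCTG, a form of the E-box that myogenic factors such as MyoD are known to bind, and to TATAAA.
Ly6c1: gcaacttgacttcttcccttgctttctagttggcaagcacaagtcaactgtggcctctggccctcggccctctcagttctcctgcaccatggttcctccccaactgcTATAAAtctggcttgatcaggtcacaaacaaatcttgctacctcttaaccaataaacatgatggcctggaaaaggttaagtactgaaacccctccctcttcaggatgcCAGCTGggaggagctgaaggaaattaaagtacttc
Ly6c2: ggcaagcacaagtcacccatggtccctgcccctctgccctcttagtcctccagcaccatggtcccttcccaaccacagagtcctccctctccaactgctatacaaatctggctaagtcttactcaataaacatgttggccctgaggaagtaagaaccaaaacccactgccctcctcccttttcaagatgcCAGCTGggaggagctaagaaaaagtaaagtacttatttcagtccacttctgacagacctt
Ly6f: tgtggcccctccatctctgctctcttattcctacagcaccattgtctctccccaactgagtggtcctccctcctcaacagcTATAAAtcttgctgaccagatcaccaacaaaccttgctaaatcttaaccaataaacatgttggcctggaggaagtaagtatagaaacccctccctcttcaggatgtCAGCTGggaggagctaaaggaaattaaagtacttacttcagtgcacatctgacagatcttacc
The stretches resembled each other, with 84.5% identity over 200 aligned bases between Ly6c1 and Ly6f, 80.8% over 224 between Ly6c2 and Ly6f, and 75.9% over 216 between Ly6c1 and Ly6c2. All 3 held CAGCTG, at positions -35 to -30 in Ly6c1, -60 to -55 in Ly6c2 and -63 to -58 in Ly6f, and 13.0% of the 32851 promoters of the same table held it too. TATAAA was found in 2 of 3, and in 12.4% of the promoters of the table. These motifs were looked for on both strands after the sequences had been seen, and since the 3 promoters are near copies, their matches are not independent of each other. The interferon motifs TTCNNNGAA (the GAS element) and the interferon-stimulated response element (GAAA, any pair of bases, GAAA), both looked for on both strands, were found in 0 of 3, and in 7.02% and 2.98% of all promoters. A match or its absence in this window says nothing about binding.

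Genes that are no members lie between and around these. Inside the span of the members lie 11 further counted genes, of which 0 were tested, and 6 had no count in any library. The highest of them was Slurp1, which encodes a secreted Ly6 protein, with 14 counts on TCP, 14 on GelMA and 99 on GelMA-PSS, or at most 0.546 CPM. Within 500 kb of the span, 14 non-member genes were tested and 0 were past 2-fold against both controls in either direction, where the shares of all tested genes were 1.37% higher and 1.16% lower, so a count of 0 lies near the background. Relative to GelMA their log2 ratios had a median of 0.16, and relative to TCP one of 0.38, against 0.03 and 0.04 over all tested genes. Eef1d, which encodes a translation elongation factor subunit on the far side of the cluster, had 251 CPM on TCP, 244 on GelMA and 363 on GelMA-PSS. Psca, a Ly6 family gene next to Them6, had 0.402, 0.682 and 1.38 CPM. Mafa had the largest ratios of the 14 and went the other way, with 13.1, 8.19 and 4.98 CPM. Its log2 ratio was -0.62 to GelMA and -1.24 to TCP, past 2-fold lower against TCP alone. Ly6g and the gene annotated as I830127L07Rik were not analysed here.

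**Figure D5:**
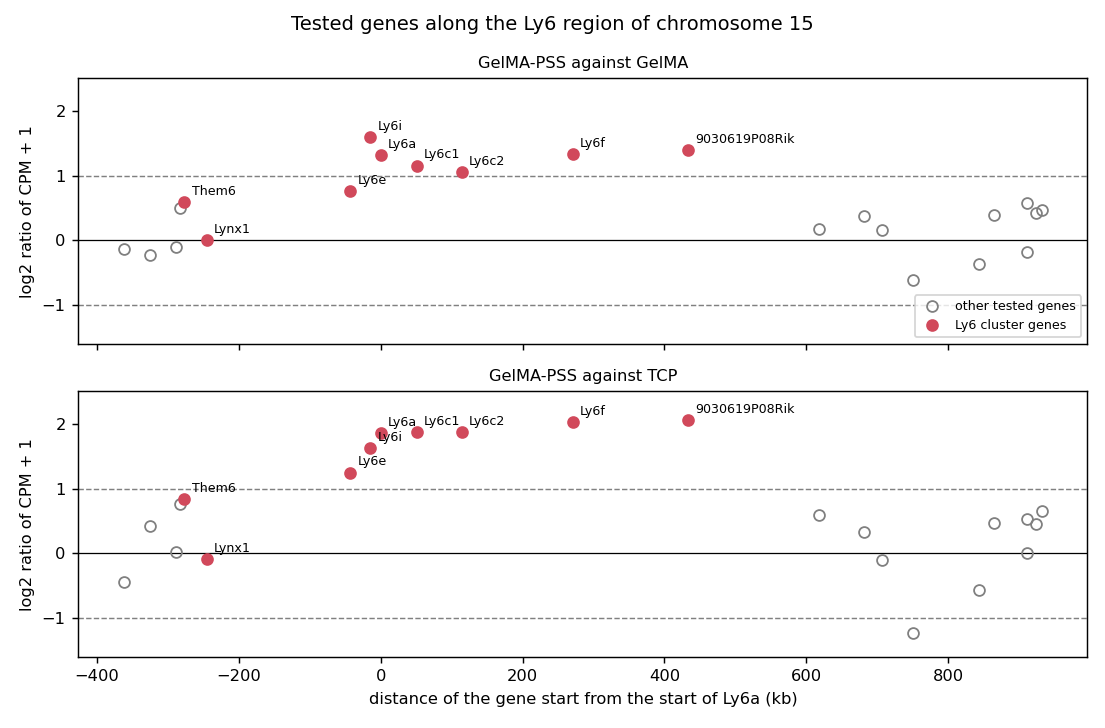
Log2 ratio of CPM + 1 for tested genes by distance of their start from that of Ly6a in kilobases, with GelMA-PSS against GelMA above and against TCP below, members in red and other genes open, and dashed lines at 2-fold. The members from Ly6i to 9030619P08Rik lie above the upper line in both panels, and 0 of the 14 other genes do in either. Mafa lies below the lower line against TCP.

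Elsewhere in the genome, 19 other Ly6/uPAR family genes were counted and 4 were tested. Plaur, the urokinase receptor that gives the family part of its name, was the 1 gene of these past 2-fold against both controls, with 9.22 CPM on TCP, 17.0 on GelMA and 35.1 on GelMA-PSS. Of all tested genes 1.37% passed this. After correction for length and GC content its log2 ratio to GelMA went from 1.01 to 0.70, and the call was lost. Its order of substrates was that of Ly6a. Cd59a, an inhibitor of complement, had 12.6, 10.1 and 18.8 CPM, and Lypd6, a modulator of Wnt signalling, had 2.98, 4.65 and 6.73 CPM. Lypd1 was counted at 1.97, 3.22 and 2.20 CPM and was highest on GelMA.

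Ly6a, Ly6c1, Ly6c2 and Ly6e are known interferon-induced genes, and 42 other interferon-response genes were listed beside them, of which 29 were tested. Past 2-fold higher against both controls was 1 of 29, H2-D1, which encodes the heavy chain of a major histocompatibility class I molecule, at 68.5, 78.9 and 160 CPM, beside 1.37% of all tested genes. After the correction its log2 ratio to GelMA went from 1.01 to 0.87, and the list held 0 calls. No gene of the list was past 2-fold lower. B2m, the light chain of that molecule, had 408, 324 and 620 CPM, and H2-K1 had 29.3, 25.4 and 45.9 CPM. Bst2, which tethers viruses to the cell surface, had 9.03, 11.3 and 18.2 CPM, and Isg15, a ubiquitin-like modifier, stayed low at 0.887, 0.913 and 2.09 CPM. With the correction, log2 ratios to GelMA went from 0.93 to 0.22 for B2m and from 0.83 to 0.58 for H2-K1. Those of Bst2 went from 0.64 to 0.10 and of Isg15 from 0.69 to 0.11. Corrected log2 ratios to TCP were 0.00 for B2m, 0.44 for H2-K1, 0.48 for Bst2 and 0.20 for Isg15. The receptor subunit Ifnar1 (49.8, 60.3 and 60.1 CPM) and the kinase Jak1 (126, 147 and 144 CPM) were nearly equal on GelMA and GelMA-PSS. Before correction, 19 of 29 genes of the list were above both controls and 4 below both. The matching shares of all tested genes were not counted, so nothing is read from these numbers. The list had a median log2 ratio of 0.25 to GelMA and 0.28 to TCP, against 0.03 and 0.04 over all tested genes. After correction for length and GC content its medians were 0.13 and 0.23, where those of all tested genes were 0.00.

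Most Ly6 proteins need a GPI anchor to stay on the surface, so the genes that build and attach it were also described. Of 26 tested, 1 was past 2-fold higher against both controls and 0 lower, beside 1.37% and 1.16% of all tested genes. The 1 was Dpm3, a small subunit of the enzyme that makes the mannose donor, at 4.67, 4.24 and 11.7 CPM. After correction for length and GC content its log2 ratios were 0.74 to GelMA and 0.70 to TCP, so the call was lost. Pigk, the catalytic subunit of the transamidase that attaches the anchor, had 171, 130 and 115 CPM, and its partner Pigt had 83.2, 82.5 and 85.3 CPM. Pgap1, which trims the anchor lipid after attachment, had 18.2, 10.7 and 5.16 CPM, with a log2 ratio of -0.92 to GelMA and -1.64 to TCP, or -0.23 and -1.16 after the correction. Over the list the median was 0.03 relative to GelMA and -0.03 relative to TCP, close to that of all tested genes.

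The labelled cell type was checked with marker genes. All 5 myoblast markers were tested and 0 were past 2-fold against both controls, beside 1.37% of all tested genes higher and 1.16% lower. Des, the muscle intermediate filament, had 3299, 2863 and 3154 CPM and Myod1, the myogenic regulator, had 94.3, 104.6 and 119 CPM. Myf5, another myogenic regulator, had 13.9, 19.5 and 36.5 CPM, the order of Ly6a, with a log2 ratio of 0.87 to GelMA and 1.33 to TCP, or 0.52 and 1.06 after correction for length and GC content. Of the 6 myotube markers 1 was past 2-fold lower against both controls, beside 1.16% of all tested genes. It was the embryonic myosin Myh3, at 10182 CPM on TCP, 6355 on GelMA and 3037 on GelMA-PSS. After the correction its log2 ratio to GelMA went from -1.07 to -0.61, and the call was lost. The summed CPM of the myotube markers was 23198, 16690 and 13299. In these uncorrected sums, most of the step from GelMA to GelMA-PSS was that of Myh3. The sums without it were 13016, 10334 and 10263. Over the 6 markers the median log2 ratio was -0.13 to GelMA and -0.46 to TCP. After the correction these medians were lower, at -0.38 and -0.69. As counted, Myog, a regulator of differentiation (1099.9, 895 and 1037 CPM), and the troponin Tnnt3 (4153, 2857 and 3117 CPM) were both higher on GelMA-PSS than on GelMA and highest on TCP. The correction turned both ratios to GelMA negative. In log2, Myog went from 0.21 to -0.10 and Tnnt3 from 0.13 to -0.38. In RNA from whole cultures, fewer cells of a type and less RNA per cell cannot be told apart, and the part of the cell makeup in the Ly6 values was not tested.

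Markers of other cells in which Ly6a or the Ly6c genes are known were also counted. Of the 7 leukocyte markers 2 were tested, with a summed 2.55, 2.35 and 1.75 CPM, and Ptprc, the common leukocyte antigen, had 0, 0 and 4 counts. Of the 5 endothelial markers 0 were tested, and Pecam1 had 4, 11 and 13 counts and Cdh5 10, 11 and 24. Of the 4 markers of fibro-adipogenic progenitors, the Ly6a-positive stromal cells of muscle, 3 were tested, with a summed 243, 259 and 335 CPM as counted. Past 2-fold against both controls were 0 of 3, where 1.37% of all tested genes were higher and 1.16% lower. Dcn, which encodes the matrix proteoglycan decorin, was the most abundant at 203, 197 and 260 CPM and, as counted, was highest on GelMA-PSS. After correction for length and GC content its log2 ratio went from 0.39 to -0.02 to GelMA and from 0.35 to 0.03 to TCP. Pdgfra, the defining marker of these progenitors, had 6.79, 10.0 and 7.44 CPM and did not follow the order of Ly6a, whereas Cd34 had 32.9, 52.0 and 67.7 CPM and did. Corrected log2 ratios to GelMA were 0.09 for Pdgfra and 0.22 for Cd34, and those to TCP were 0.47 and 0.91. Thy1 had 0, 0 and 2 counts. The part of such cells, or of these genes' expression in myoblasts, in the Ly6 values was not tested.

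The 5 tested genes whose profile over the 3 libraries was most like that of Ly6a, by Euclidean distance between centred log2(CPM + 1) values, were Fabp5 (0.0443), S100a10 (0.0562), Msc (0.0763), Selenbp1 (0.0878) and Nos2 (0.0950). With 3 libraries many genes come close by any measure, and on this scale the 1 added to each CPM narrows the ratios of low genes such as Msc, Selenbp1 and Nos2, so this is a description only. Fabp5, a fatty acid binding protein, had 19.3, 29.8 and 74.8 CPM, and S100a10, the partner of annexin A2, had 163, 226 and 589 CPM. Both have short transcripts, of 987 and 685 bases. Msc, a repressor that opposes myogenic factors, was low at 1.75, 2.77 and 8.26 CPM. Among the members Ly6f stood 13th in this order, Ly6c1 15th, 9030619P08Rik 16th and Ly6c2 23rd, followed by Ly6i at 64th and Ly6e at 146th. Them6 at 708th and Lynx1 at 7562nd were far away.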

How the data were processed

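RNA was sequenced from c2c12 cells on 3 substrates, with 1 library each. The files deposited by the authors hold unnormalized counts for each symbol. Their processing notes name TopHat, edgeR, mm10 and hg19, without roles or versions. The study's methods give strand-specific paired reads. The counter and annotation are not given in the sources used here. Should each mate of a read pair have been counted, the counting intervals are too narrow.

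Lines sharing a symbol were summed (35 symbols, 0 members). Counts were scaled by TMM (edgeR 4.0.16, R 4.3.3). Tested genes reached 1 CPM in at least 1 library, and 2-fold on log2(CPM + 1) was the call. Intervals were exact Poisson for CPM and exact binomial for ratios (scipy 1.17.1). Lengths, GC content and coordinates came from GENCODE mouse release 21 (GRCm38), 1 transcript per gene. Symbols matched directly in 22197 cases and through older symbols in 668, and 373 did not match. Loess fits (statsmodels 0.14.6, span 0.3) gave the correction. Identities came from pairwise alignment (Biopython 1.88). Scaling and calling were tested on simulated counts with known changes and no trend with length. The correction for length and GC content was not tested in this way. The members and gene lists were chosen with earlier results of these data known. All members were named. Of each other list, up to 4 genes of highest mean CPM and up to 4 with the largest ratio against the nearer control could be named. Ptprc, Pecam1, Cdh5, Thy1, Slurp1, Eef1d and Mafa were named after their values were seen. The alternatives were another threshold, pseudocount, filter, scaling, length correction and handling of shared symbols.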

Additional observations from a re-analysis of the deposited data

How the results depend on the processing

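With 1 library per substrate no library could be left out. No paired analysis was possible because each substrate has 1 library. At a threshold of 1.5-fold, 4 of 9 members were called in GelMA against TCP (0 at 2-fold) and 8 in each comparison with GelMA-PSS. The background rose as well. Of the 13169 tested genes, 461 were past 1.5-fold higher in GelMA against TCP, 1448 in GelMA-PSS against GelMA and 1738 in GelMA-PSS against TCP. Correction for length and GC content left 1 member past 2-fold against GelMA (6 without it) and 1 against both controls (6 without it). Beside these stood 88 and 59 of the 13060 genes corrected. With library totals alone 5 members were called against GelMA, beside 120 of all genes higher, since Ly6c2 no longer passed. The 27 member ratios kept their sign under a pseudocount of 0.25, no filter, median-of-ratios factors and the other handling of shared symbols, and 26 of 27 kept it under library totals and under the correction, with Lynx1 the exception in both. Summing Ly6c1 and Ly6c2, an alternative chosen after seeing the data, changed no call, which was fixed in advance where both genes passed 2-fold.

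Counts over all genes moved more. GelMA-PSS against GelMA had 233 genes higher and 307 lower, 120 and 506 under library totals, 88 and 155 after the correction, and 1448 and 1423 at 1.5-fold. GelMA-PSS against TCP had 490 higher and 412 lower, 261 higher after the correction, and 1738 and 1509 at 1.5-fold. GelMA against TCP had 93 and 39, 171 and 88 with a pseudocount of 0.25, and 461 and 279 at 1.5-fold. Against both controls 180 were higher and 153 lower, 97 and 261 under library totals, 59 and 78 after the correction, and 1064 and 946 at 1.5-fold, with 241 lower at the smaller pseudocount. Library totals moved the median log2 ratio of all genes against GelMA from 0.03 to -0.10, and the member ratios by at most -0.15, so relative to that median they moved little. Depth was not the limit for the members, which had 1230 counts or more in every library, while for a gene with no count the limit was 3 counts, or 0.0246 CPM on TCP, 0.0330 on GelMA and 0.0166 on GelMA-PSS.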

Other observations

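Among Ly6/uPAR genes below the level tested, Cd59b, a copy of the complement inhibitor Cd59a, had 2 counts on TCP, 1 on GelMA and 137 on GelMA-PSS. Its ratio of GelMA-PSS to GelMA was 68.7, with a counting interval of 12.1 to 2734, and that to TCP was 46.0 (12.5 to 384). Cd59a, at 12.6, 10.1 and 18.8 CPM, differed far less between the libraries. The values come from 1 library per substrate and were noticed after the data were seen.

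Nos2, the inducible nitric oxide synthase and the fifth closest gene to Ly6a in profile, was almost uncounted on TCP at 0.172 CPM, with 0.605 CPM on GelMA and 2.86 CPM on GelMA-PSS. Its closeness holds on the log2(CPM + 1) scale, where 1 is added to low values. As plain CPM ratios, Nos2 was 16.6-fold higher on GelMA-PSS than on TCP (10.8 to 27.1, counting error only) and 4.73-fold higher than on GelMA (3.58 to 6.37), both larger than the 3.62-fold and 2.48-fold of Ly6a. Its transcript of 3429 bases is long, unlike those of the Ly6a-like genes Fabp5 and S100a10. Selenbp1, a selenium-binding protein with a transcript of 1712 bases, had 1.08, 2.28 and 6.57 CPM.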
